A study of Rattus norvegicus with 2 samples.

Results

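The genes described here are 8 members of bone morphogenetic protein (BMP) signalling: the ligands Bmp2, Bmp4 and Bmp6, the secreted antagonist Grem1, the target genes Id1, Id2 and Id3, and the inhibitory SMAD gene Smad6. The list was drawn up by symbol, with no threshold on values but with earlier results of these data known, and its genes are 8 of the 25399 genes in the count table. BMPs are secreted dimers that bind a pair of receptor kinases, which phosphorylate the receptor SMADs; these join SMAD4, enter the nucleus and switch on targets of which the Id genes are among the best known. Id proteins lack a DNA-binding region and hold E-proteins away from DNA, so they act against differentiation factors of the helix-loop-helix family. In the heart, BMP ligands are known for their part in valve, cushion and myocardial development, and endothelial cells are well known to express Id1 in response to BMPs.

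Single-cell RNA-seq had been run on cardiac cells of neonatal Sprague-Dawley rats, 1 to 3 days old and of both sexes pooled, which were enriched on a Percoll gradient for intrinsic cardiac adrenergic (ICA) cells. The study asked how ICA cells take part in the response of the heart to lipopolysaccharide (LPS), a bacterial cell wall component sensed by TLR4. One batch of cells received saline (control) and the other LPS at 1 µg/mL, each for 2 h, and each gave 1 library. The animals were pooled, the cells were treated after isolation, and most of them carry other names than ICA.

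The control library held 11531 cells with a median of 12479 UMIs (unique molecular identifiers, counts of captured mRNA molecules) and the LPS library 12689 cells with a median of 9432. The authors' 11 clusters were used as deposited. Clusters 0, 1 and 7 carry the name Fibroblast. Cycling genes such as Top2a lead cluster 1 and interferon-response genes mark cluster 7. Cluster 2 has no name and is pericyte-like by its markers (Rgs5, Kcnj8, Abcc9). Cluster 3 is named ICA and Cardiomyocyte, and cardiomyocyte genes such as Trdn and Casq2 lead it. Its summed ICA markers (Dbh, Ddc, Th and Pnmt) were the highest of the compared clusters at 75.2 UMIs per 1000000 in control and 81.9 in LPS, but Th had no UMI there in either library. Clusters 4 and 5 are Endothelial, with Gpihbp1 leading the former and Selp and Plvap the latter, and cluster 6 is Macrophages. These 8 clusters held at least 100 cells in each library and were compared; clusters 8, 9 and 10 were smaller. A total of 194 cell barcodes occurred in both libraries.

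A level is the summed UMIs of a gene in all cells of a cluster, per 1000000 UMIs of that cluster (CPM). A ratio is the LPS level over the control level. With 1 library per condition there is no replicate, so there is no test and no p-value. The 95% intervals cover only the error of counting. An effect of LPS and a difference between these 2 libraries cannot be told apart. A 3′ UMI level compares 1 gene across clusters and not 1 gene with another.

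The promoters of the Id genes and Bmp4 are given first. Of the members with a promoter entry, these genes had the most UMIs, and they differed in direction between the libraries. RefSeq promoters (build GRCr8) were found for 6 of the 8 genes, and not for Bmp2 and Smad6. The 250 bases before the annotated start are printed 5′ to 3′ on the gene's strand. Id1 lies on the plus strand at chr3:161671314-161671563, Id3 on the plus strand at chr5:153656041-153656290, Id2 on the minus strand at chr6:47470996-47471245 and Bmp4 on the minus strand at chr15:22101934-22102183. Capitals mark every match, on either strand, to the SMAD half-site GTCT (AGAC on the other strand) and to the E-box CANNTG that helix-loop-helix factors bind.
Id1: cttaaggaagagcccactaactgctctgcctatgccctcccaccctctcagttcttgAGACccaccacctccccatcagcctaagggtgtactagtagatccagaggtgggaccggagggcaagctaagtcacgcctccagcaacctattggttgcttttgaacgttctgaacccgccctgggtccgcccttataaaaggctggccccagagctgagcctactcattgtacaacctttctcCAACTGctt
Id3: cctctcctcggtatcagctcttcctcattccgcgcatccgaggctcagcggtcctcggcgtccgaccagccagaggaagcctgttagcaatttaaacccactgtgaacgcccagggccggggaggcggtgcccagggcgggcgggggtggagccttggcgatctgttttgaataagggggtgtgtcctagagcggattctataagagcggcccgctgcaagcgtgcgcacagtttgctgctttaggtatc
Id2: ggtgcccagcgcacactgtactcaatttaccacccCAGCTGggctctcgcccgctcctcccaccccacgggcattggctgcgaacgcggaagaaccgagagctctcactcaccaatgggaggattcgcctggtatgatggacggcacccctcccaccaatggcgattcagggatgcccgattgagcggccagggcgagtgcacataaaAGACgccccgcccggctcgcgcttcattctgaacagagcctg
Bmp4: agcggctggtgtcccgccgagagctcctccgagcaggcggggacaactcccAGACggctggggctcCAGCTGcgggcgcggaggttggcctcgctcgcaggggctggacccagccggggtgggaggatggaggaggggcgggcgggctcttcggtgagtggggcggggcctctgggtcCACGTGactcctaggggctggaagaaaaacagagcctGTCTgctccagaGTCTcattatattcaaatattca
GTCT was found in 5 of the 6 promoters and in 84.0% of all 33469 promoters. CANNTG was found in Bmp4, Id1 and Id2, against 65.5% of all promoters. The BMP SMAD motif GGCGCC was found in Grem1 alone, against 8.70% of all promoters. Neither TGACGTCA (in 1.59% of all promoters) nor the kappaB consensus (in 3.54%) was found in any of the 6. The Id3 window held none of the motifs searched. Only these 250 bases were searched, so a motif elsewhere in or near a gene would not be found.

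Bmp2 (ENSRNOG00000021276) was the member that differed most. Its level was higher in LPS in each of the 8 compared clusters, by 4.34-fold to 13.8-fold. In the main fibroblast cluster 0, Bmp2 was at 7.14 CPM (646 UMIs) in control and 78.8 CPM (5810 UMIs) in LPS, a ratio of 11.04 (95% interval 10.2 to 11.99). In endothelial cluster 5 it was at 8.94 CPM (38 UMIs) in control and 123.1 CPM (560 UMIs) in LPS, a ratio of 13.8 (9.90 to 19.7). The intervals of the 2 libraries did not overlap in any compared cluster.

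The other 6 ratios lay between 4.34 and 9.69. Cluster 3 (ICA and Cardiomyocyte) went from 2.54 to 24.6 CPM, a ratio of 9.69 (5.90 to 16.8). Macrophage cluster 6 went from 4.82 to 38.2 CPM, a ratio of 7.94 (4.58 to 14.7). These intervals are wide because control held only 18 and 15 UMIs. Cycling fibroblasts had a ratio of 5.33 (4.56 to 6.27), interferon fibroblasts 5.08 (3.01 to 9.11), endothelial cluster 4 a ratio of 4.88 (3.89 to 6.17) and pericyte-like cells 4.34 (3.43 to 5.53).

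**Figure D1:**
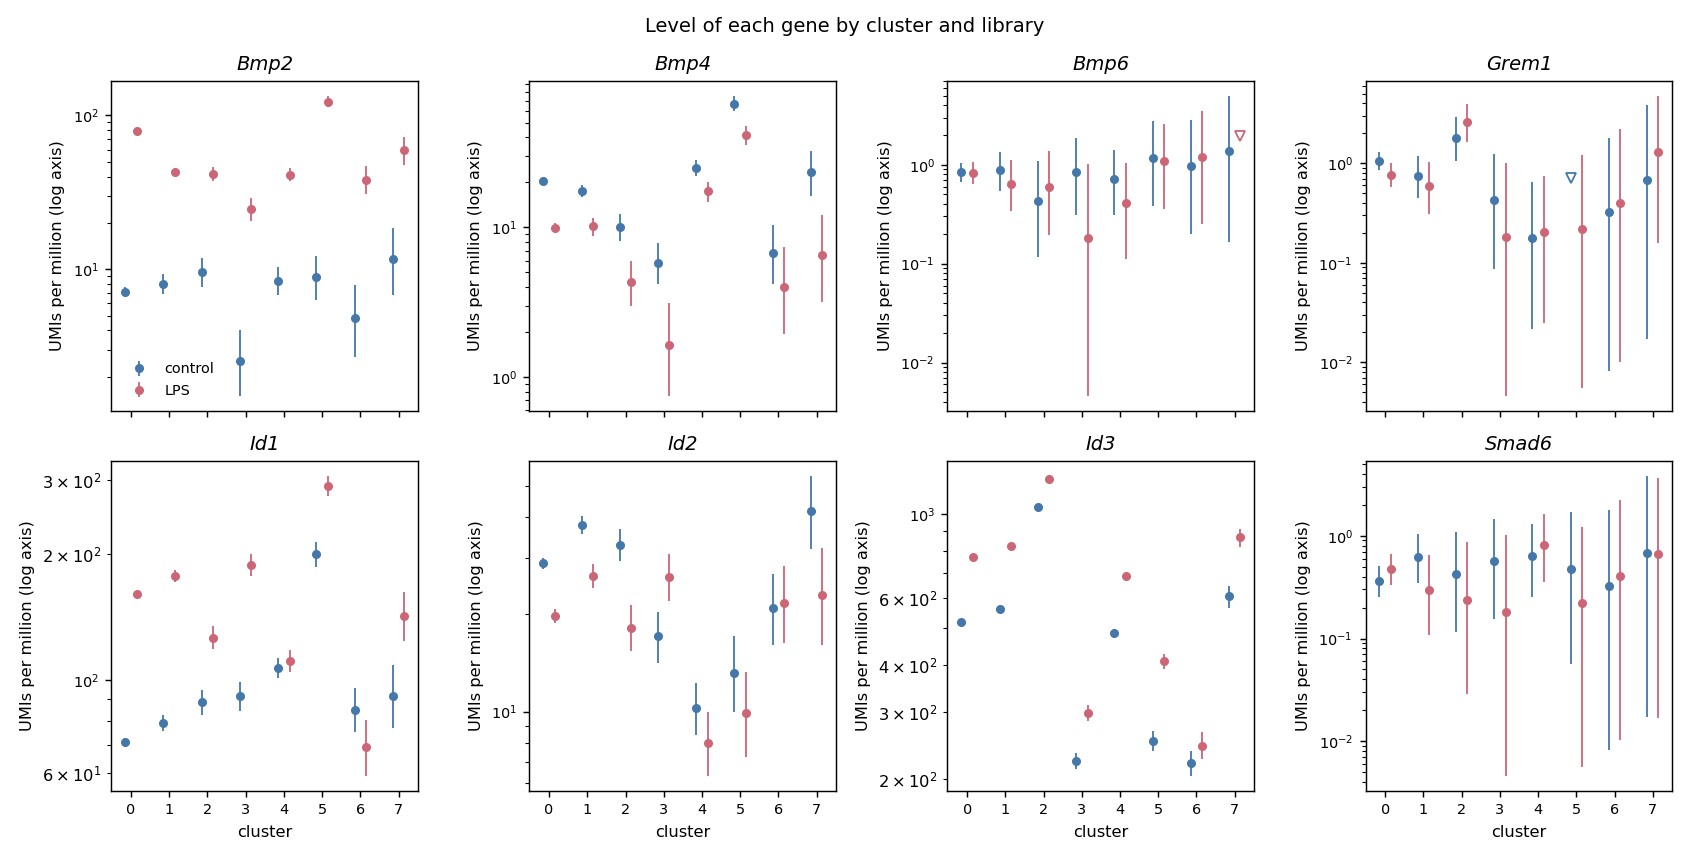
Level of each of the 8 genes (CPM, log axis) in clusters 0 to 7 of the control (blue) and LPS (red) libraries, with exact Poisson 95% intervals; open triangles mark the level of 3 UMIs where none was counted. Bmp2 is higher in LPS in all 8 clusters, whereas Bmp6, Grem1 and Smad6 lie near 1 CPM with wide, overlapping intervals.

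The order of the clusters by Bmp2 level was not the same in the 2 libraries. In control the 8 clusters spanned only 2.54 to 11.7 CPM, and each interval overlapped that of the next cluster in order. In LPS cluster 5 stood above all others at 123.1 CPM (113.1 to 133.7), followed by cluster 0 at 78.8 CPM and cluster 7 at 59.2 CPM, without overlap between these neighbours. Clusters 1, 2, 4 and 6 came next at 42.9, 41.7, 41.2 and 38.2 CPM and overlapped one another, and cluster 3 was lowest at 24.6 CPM. The 2 endothelial clusters, at 8.45 and 8.94 CPM in control, were at 41.2 and 123.1 CPM in LPS. The log2 ratio of cluster 5 exceeded that of cluster 4 by 1.497 (0.92 to 2.07), and that of cluster 0 by 0.32 (−0.17 to 0.81).

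Fibroblast markers give a measure of the free RNA that droplets hold. The summed level of 6 of them (Col1a1, Col1a2, Pdgfra, Dcn, Tcf21 and Lum) in macrophages was 32.2% of that in cluster 0 in control and 27.1% in LPS, and in cluster 3 it was 30.2% and 28.9%. Bmp2 in macrophages was 67.5% of its cluster 0 level in control and 48.5% in LPS, and in cluster 3 it was 35.6% and 31.3%. The Bmp2 level of cluster 3 thus stood close to the share that fibroblast markers reached there, and that of macrophages above it. The part of free RNA in the Bmp2 of these clusters was not tested.

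Shares of cells were compared after each cell was thinned to 3000 UMIs, and 79 shallower LPS cells were left out. A Bmp2 UMI was found in 1.88% of the 6600 cluster 0 cells in control and 16.9% of the 7024 in LPS, a difference of 14.99 percentage points (14.1 to 15.9). In cluster 5 the shares were 3.71% of 350 cells and 23.9% of 436 cells. None of the clusters is known to lack Bmp2, and the macrophage cluster, at 0.712% and 4.83% and with median depths of 8846 and 6900 UMIs, had nearly the lowest shares. Before thinning, the difference in cluster 5 was 40.3 percentage points.

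Bmp2 was also unevenly spread among LPS cells. In cluster 5, 14.2% of thinned LPS cells had 1 Bmp2 UMI, 6.19% had 2 and 3.44% had 3 or more, with a highest count of 11. The variance of the count was 2.27 times its mean there, where a Poisson count has a value of 1. In LPS it was 1.84 times the mean in cluster 6, 1.71 in cluster 2, 1.57 in cluster 0 and 1.30 in cluster 4. Control cells of clusters 4 and 5 had values of 1.675 and 1.33. The mean LPS count was 0.404 in cluster 5 but 0.116 in cluster 2 and 0.069 in cluster 6. These values thus do not compare the clusters at the same mean. Most cells had no Bmp2 UMI at this depth.

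**Figure D2:**
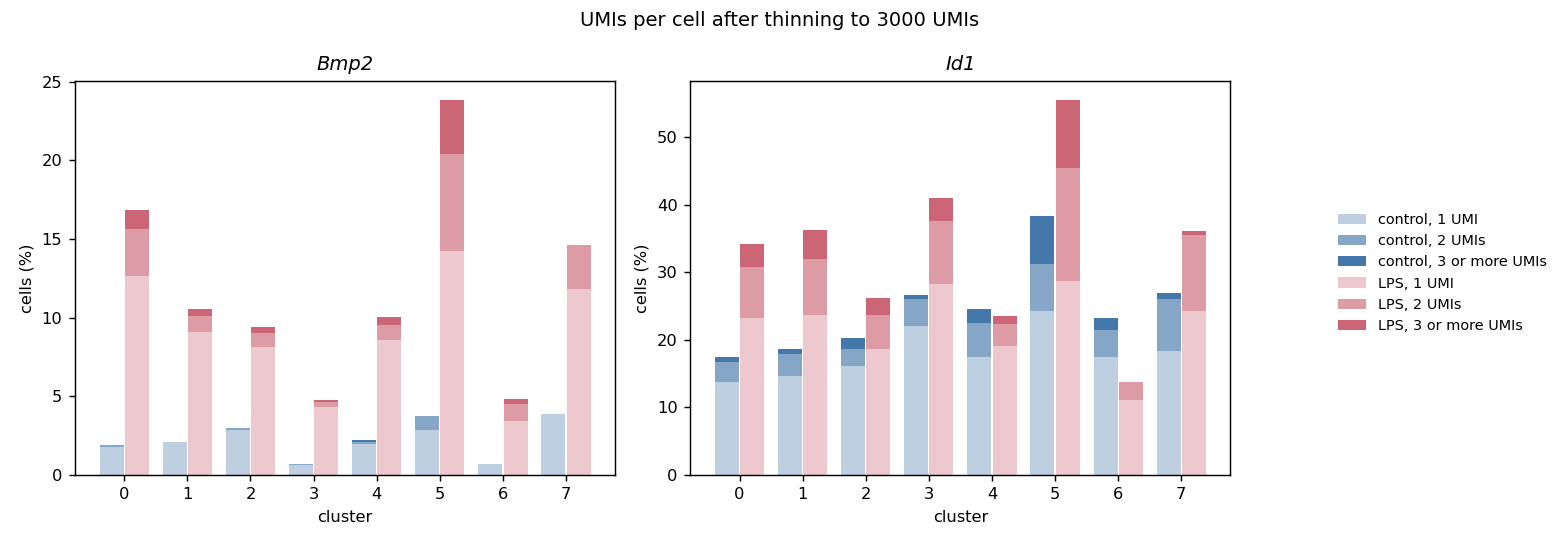
Percent of cells with 1, 2 and 3 or more UMIs of Bmp2 (left) and Id1 (right) after thinning to 3000 UMIs, by cluster and library, as stacked bars from pale to dark. The LPS bar of Bmp2 is tallest in cluster 5 at 23.9% of cells, and Id1 in that cluster reaches 38.3% in control and 55.5% in LPS.

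Bmp4 (ENSRNOG00000009694), a ligand of the same subfamily as Bmp2, had the opposite direction. Its level was lower in LPS, with the interval of the ratio below 1, in each of the 6 clusters that held at least 50 Bmp4 UMIs. Cluster 0 had 20.5 CPM (1858 UMIs) in control and 9.95 CPM (734 UMIs) in LPS, a ratio of 0.485 (0.444 to 0.528). Endothelial cluster 5 had 67.1 CPM in control and 41.3 CPM in LPS, a ratio of 0.616 (0.510 to 0.743). The libraries did not overlap in either cluster.

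The ratio was 0.427 (0.282 to 0.633) in pericyte-like cells, 0.579 (0.488 to 0.686) in cycling fibroblasts and 0.697 (0.572 to 0.847) in endothelial cluster 4. Cluster 3 had 41 UMIs in control and 9 in LPS, a ratio of 0.283 (0.121 to 0.592). Bmp4 in cluster 3 was at 28.2% of its cluster 0 level in control and 16.5% in LPS, below the 30.2% and 28.9% that the fibroblast markers reached there, and the part of free RNA in it was not tested. Macrophages, with 21 and 10 UMIs, had a ratio of 0.597 whose interval included 1 (0.251 to 1.32). Interferon fibroblasts, with 34 and 10 UMIs, had a ratio of 0.282 (0.125 to 0.585). Both were under the minimum of 50 UMIs.

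Bmp4 kept its place among the clusters more than Bmp2 did. Endothelial cluster 5 was highest in both libraries, without overlap with the next cluster, which was endothelial cluster 4 at 24.9 CPM in control and 17.4 CPM in LPS. Cluster 3 was lowest in both, at 5.79 and 1.64 CPM. Among the smaller clusters, the mesothelial-like cluster 8 reached 58.5 CPM in control and 38.1 CPM in LPS, close to cluster 5. In cluster 5 the share of thinned cells with a Bmp4 UMI was 18.6% in control and 12.2% in LPS, a difference of −6.41 percentage points (−11.6 to −1.37). Thinned to 1500 UMIs, the difference was −1.45 percentage points, with an interval that included 0 (−5.30 to 2.16).

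Bmp6 (ENSRNOG00000013717), another BMP ligand, and Grem1 (ENSRNOG00000026053), a secreted protein that binds BMP2 and BMP4 and keeps them from their receptors, were sparse. Bmp6 had 126 UMIs in the whole control library and 92 in the LPS library, a ratio of 0.874 (0.660 to 1.15). Only cluster 0 held at least 50 of them, at 0.840 and 0.827 CPM. Grem1 had 138 and 100 UMIs, a ratio of 0.867 (0.663 to 1.13).

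Of the compared clusters, the pericyte-like one had the highest Grem1 level in both libraries, at 1.81 CPM (17 UMIs) in control and 2.62 CPM (22 UMIs) in LPS, with intervals that overlapped those of the next cluster in both. In cluster 0 it was at 1.06 and 0.773 CPM, a ratio of 0.729 (0.515 to 1.02). Endothelial cluster 5 had no Grem1 UMI in control, with an interval that reached up to 0.868 CPM, and 1 UMI in LPS. No difference between the libraries was detectable for these 2 genes at this depth.

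Id1 (ENSRNOG00000021750) was higher in LPS in 6 of the 8 clusters, with intervals above 1. The ratio was above 2 in 3 of them. Cluster 0 had 71.2 CPM (6448 UMIs) in control and 160.7 CPM (11850 UMIs) in LPS, a ratio of 2.26 (2.19 to 2.33). Cycling fibroblasts had 79.2 and 176.6 CPM, a ratio of 2.23 (2.11 to 2.36). Cluster 3 had 91.5 and 187.9 CPM, a ratio of 2.05 (1.86 to 2.27). The intervals of the differences between these 3 log2 ratios included 0.

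Other clusters showed less. Interferon fibroblasts had 91.8 and 142.1 CPM (ratio 1.55, 1.24 to 1.94), endothelial cluster 5 had 199.6 and 290.1 CPM (ratio 1.45, 1.33 to 1.59) and pericyte-like cells had 88.7 and 126.3 CPM (ratio 1.42, 1.30 to 1.56). Endothelial cluster 4 had nearly equal levels of 107.0 and 110.9 CPM, a ratio of 1.04 (0.954 to 1.13). The log2 ratio of cluster 4 lay below that of cluster 0 by 1.12, with an interval of the difference from −1.25 to −0.99, and that of cluster 5 above that of cluster 4 by 0.49 (0.31 to 0.66).

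In macrophages Id1 was lower in LPS, at 85.1 CPM (265 UMIs) in control and 69.2 CPM (172 UMIs) in LPS, a ratio of 0.813 (0.667 to 0.989). The median gene of that cluster also had a log2 ratio of −0.30. Relative to the median gene the log2 ratio of Id1 was 0.01, so the direction in macrophages turned with the scaling. The share of thinned macrophages with an Id1 UMI was 23.1% of 281 cells in control and 13.8% of 290 cells in LPS, a difference of −9.34 percentage points (−15.7 to −2.98). Thinned to 1500 UMIs, the shares were 8.90% and 8.59%, a difference of −0.306 percentage points, with an interval that included 0 (−5.06 to 4.40).

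Id1 was highest in endothelial cluster 5 in both libraries, without overlap with any other compared cluster. In control the next clusters, from 107.0 CPM in cluster 4 down to 79.2 CPM in cluster 1, each overlapped the next, and cluster 0 was lowest at 71.2 CPM. In LPS cluster 3 came second, cluster 4 was seventh and macrophages were last. Clusters 1 and 0, the last in the control order, stood above clusters 2, 4, 6 and 7 in LPS, with overlap only between clusters 0 and 7. In cluster 5, 38.3% of thinned control cells and 55.5% of LPS cells had an Id1 UMI, a difference of 17.2 percentage points (10.2 to 24.0). In cluster 0 the shares were 17.4% and 34.1%.

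**Figure D3:**
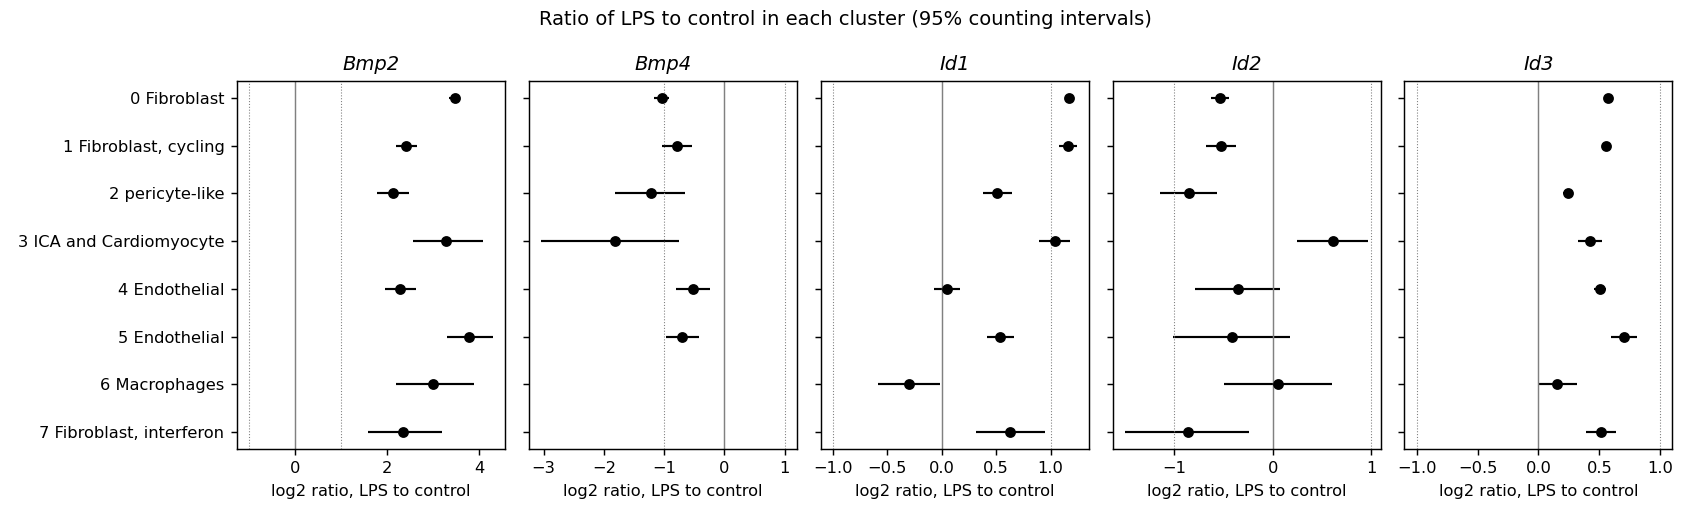
Log2 ratio of LPS to control for the 5 members with most UMIs, by cluster, with 95% counting intervals; pairs under 50 UMIs are left out, dotted lines mark 2-fold and the panels differ in their x axis. Bmp2 lies beyond 2-fold in all 8 clusters, Bmp4 lies below 0 throughout, and Id1 spans from −0.30 in macrophages to 1.17 in cluster 0.

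Id3 (ENSRNOG00000026124), which like Id1 encodes an inhibitor of E-proteins, was higher in LPS by a smaller and more even ratio. The interval lay above 1 in 7 of the 8 clusters and no ratio reached 2. Cluster 0 had 518.7 and 771.0 CPM, a ratio of 1.49 (1.47 to 1.51). Endothelial cluster 5 had 251.8 and 409.6 CPM, the highest ratio at 1.63 (1.51 to 1.76). The pericyte-like cluster had 1043 and 1235 CPM, a ratio of 1.18 (1.15 to 1.22). In macrophages the levels of 220.6 and 245.4 CPM gave a ratio of 1.11 whose interval included 1 (0.996 to 1.24).

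The order of the clusters by Id3 level was the same in both libraries: cluster 2, 7, 1, 0, 4, 5, 3 and 6. Neighbours overlapped for clusters 7 and 1 in both libraries and for clusters 3 and 6 in control only. Id1 and Id3 thus stood highest in different clusters, Id1 in endothelial cluster 5 and Id3 in the pericyte-like cluster. Between the endothelial clusters the order of the genes was also opposite. In control Id1 was at 107.0 CPM in cluster 4 and 199.6 CPM in cluster 5, whereas Id3 was at 484.9 CPM in cluster 4 and 251.8 CPM in cluster 5. Fibroblast markers in the pericyte-like cluster were at 42.3% of cluster 0 in control and 34.8% in LPS, and the Id3 level there exceeded that of cluster 0 in both. In cluster 3 Id3 was at 43.1% of its cluster 0 level in control and 38.9% in LPS, beside 30.2% and 28.9% for the fibroblast markers. In macrophages Id3 was at 42.5% and 31.8%, beside 32.2% and 27.1% for the markers. The part of free RNA in the Id3 of these clusters was not tested.

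Id3 was detected in most cells. In cluster 0 the share of thinned cells with an Id3 UMI was 71.3% in control and 85.1% in LPS, and in the pericyte-like cluster 88.0% and 91.4%. The lowest shares were those of macrophages, at 29.2% and 33.8%. In the pericyte-like cluster the difference of 3.43 percentage points (1.08 to 5.83) became −0.868 without thinning, where control cells were deeper (median 6854 against 5082 UMIs).

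**Figure D4:**
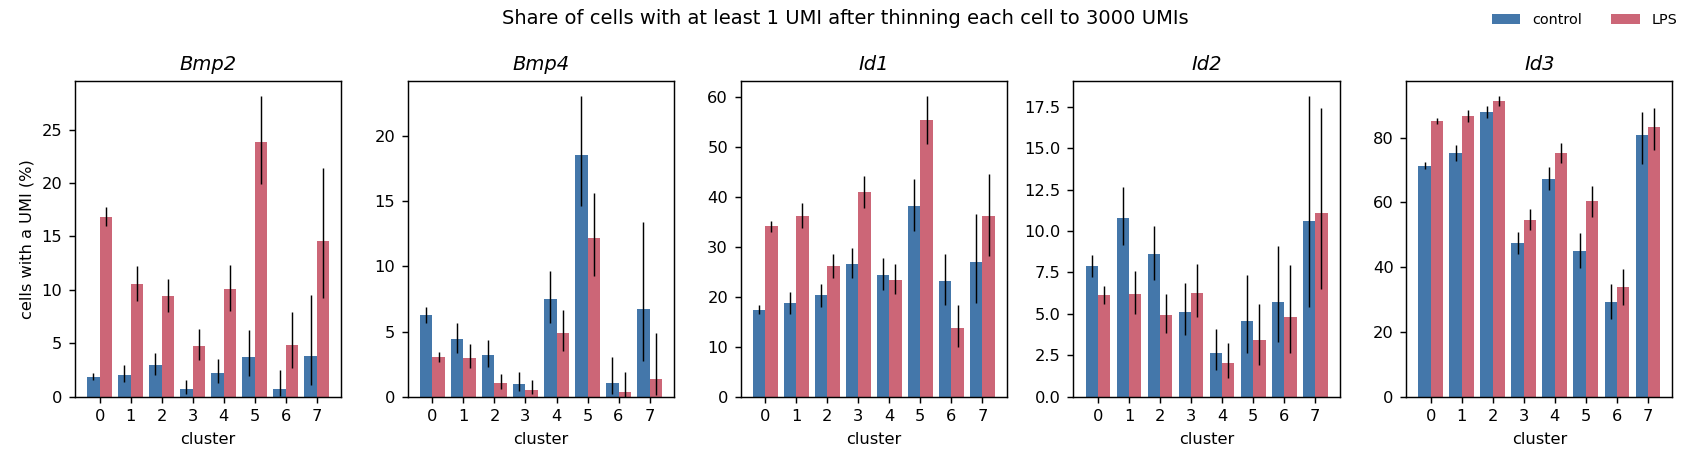
Percent of cells with at least 1 UMI of Bmp2, Bmp4, Id1, Id2 and Id3 after thinning to 3000 UMIs per cell, in clusters 0 to 7 of the control (blue) and LPS (red) libraries, with exact binomial (Clopper-Pearson) 95% intervals. Bmp2 in cluster 0 goes from 1.88% to 16.9% of cells, and Bmp4 is found most often in cluster 5 in both libraries.

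Id2 (ENSRNOG00000007237), a further Id gene, differed from Id1 and Id3 in direction. It was lower in LPS, with the interval below 1, in 4 clusters: the 3 fibroblast clusters and the pericyte-like cluster. Cluster 0 had 28.8 CPM (2603 UMIs) in control and 19.8 CPM (1462 UMIs) in LPS, a ratio of 0.689 (0.646 to 0.735). The pericyte-like cluster had 32.9 and 18.2 CPM, a ratio of 0.554 (0.453 to 0.675). Cycling fibroblasts had 37.9 and 26.3 CPM (ratio 0.695, 0.623 to 0.774) and interferon fibroblasts 41.8 and 23.0 CPM (ratio 0.551, 0.353 to 0.848). The interferon fibroblast ratio rests on 61 and 35 UMIs. After thinning to 3000 UMIs, 10.6% of these cells in control and 11.1% in LPS had an Id2 UMI. The interval of that difference included 0 (−7.93 to 8.22 percentage points).

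Cluster 3 went the other way, from 17.1 CPM (121 UMIs) in control to 26.1 CPM (143 UMIs) in LPS, a ratio of 1.53 (1.19 to 1.96). Its log2 ratio exceeded that of cluster 0 by 1.15 (0.79 to 1.51). The share of thinned cells with an Id2 UMI in cluster 3 was 5.14% and 6.26%, and the interval of that difference included 0 (−1.08 to 3.30 percentage points). Both endothelial clusters (ratios of 0.782 and 0.750) and macrophages (1.04) had intervals that included 1. The endothelial clusters had the lowest Id2 levels of the compared clusters in both libraries, at 10.2 and 13.2 CPM in control and 8.01 and 9.89 CPM in LPS for clusters 4 and 5.

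Smad6 (ENSRNOG00000009173), whose protein blocks BMP receptor SMADs and which is itself a BMP target, had 68 UMIs in control and 56 in LPS over all cells, a ratio of 0.985 (0.679 to 1.42). Cluster 0 held 33 and 35 of them and was the only cluster with at least 50. Its ratio there was 1.30 (0.785 to 2.16). No level above 1 CPM was seen in any compared cluster, and no difference between the libraries was detectable.

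Counted over clusters, 41 pairs of a member and a cluster held at least 50 UMIs over both libraries. LPS was at least 2-fold higher in 11 of them (Bmp2 in all 8 clusters and Id1 in clusters 0, 1 and 3) and at least 2-fold lower in 3 (Bmp4 in clusters 0, 2 and 3). Of all genes with that minimum, the share at least 2-fold higher was 3.43% in cluster 0, 3.22% in cluster 1, 2.83% in cluster 2, 1.68% in cluster 3, 2.63% in cluster 4, 4.19% in cluster 5, 4.81% in cluster 6 and 4.56% in cluster 7. The share at least 2-fold lower was 9.01%, 4.99%, 4.17%, 1.67%, 4.02%, 4.41%, 12.1% and 3.37% in the same order. In cluster 0, all 8 members met the minimum, and 2 were higher and 1 lower. The median log2 ratio of the members there was 0.18, beside −0.13 over all 12247 genes.

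Cells with an Id1 UMI were compared with cells without one in the same cluster and library, after thinning. In cluster 0 an Id3 UMI was found in 79.7% of control cells with Id1 (77.3 to 82.0) and in 69.6% of those without (68.3 to 70.8). In LPS the shares were 89.5% and 82.9%, again without overlap. In cycling fibroblasts they were 82.2% and 73.7% in control, without overlap, and 86.0% and 87.1% in LPS, with overlap. In every other compared cluster the intervals overlapped in both libraries. In endothelial cluster 5, for example, the shares were 44.8% and 45.4% in control and 61.6% and 58.8% in LPS. In a comparison added after values were seen, 35.6% of LPS cluster 0 cells with a Bmp2 UMI had an Id1 UMI, against 33.8% of those without, with overlapping intervals. Cells of 1 library are not replicates, so these shares are a description of the 2 libraries.

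The genes whose levels were most alike were sought over 16 classes (8 clusters in 2 libraries) among 8602 genes, as a description. The classes share 2 libraries, so a difference between libraries enters every correlation. For Bmp2 the highest Pearson correlations were with Bcl3 (0.95), Rcl1 (0.930), Cyp7b1 (0.929), Icam1 (0.926) and Ugdh (0.922). Bcl3 encodes a member of the IkappaB family and Icam1 a leukocyte adhesion molecule. For Bmp4 they were with Hscb (0.939), Cox7a2l (0.928), Nop53 (0.913), Vegfc (0.908) and Hmcn1 (0.901).

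For Id3 the leading gene was Dgcr6 (0.934), followed by Alpl (0.929), which encodes tissue-nonspecific alkaline phosphatase. No gene was as close to Id1, whose highest value was 0.829 (Ankrd27), or to Id2, at 0.842 (Pmp22). Among the members, Bmp2 and Id1 had a correlation of 0.61 over 16 classes and 0.20 over the 8 control classes. Id1 and Id3 had 0.06 over 16 classes. Bmp6, Grem1 and Smad6 were under the minimum level for this measure.

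The rest of the pathway was read from 47 further genes, counted whole by role. At least 50 UMIs in a compared cluster were held by 38 of them: 4 of 8 other ligands, 10 of 11 receptors and co-receptors, 6 of 7 SMADs and their regulators, 11 of 13 secreted inhibitors and modulators, and 7 of 8 other targets and Id partners. Of 198 pairs of gene and cluster, 10 were at least 2-fold higher in LPS and 22 at least 2-fold lower. Bambi gave 8 of the lower pairs, and Tgfbi, a matrix protein gene counted with the secreted modulators, gave 5. Of all genes with that minimum, 1.68% to 4.81% were at least 2-fold higher and 1.67% to 12.1% at least 2-fold lower, depending on the cluster. In cluster 0, 36 genes met the minimum, of which 3 were higher and 6 lower, beside 3.43% and 9.01% of all genes. Cluster 1 had 2 higher and 4 lower of 32 genes, cluster 2 had 1 and 2 of 26, cluster 3 had 0 and 1 of 26, cluster 4 had 2 and 4 of 28, cluster 5 had 1 and 2 of 22, cluster 6 had 0 and 2 of 14, and cluster 7 had 1 and 1 of 14, where Bambi was among the lower genes each time. The median log2 ratio of the list was −0.20 in cluster 0, beside −0.13 over all genes, and −0.06 in cluster 3, beside −0.00.

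**Figure D5:**
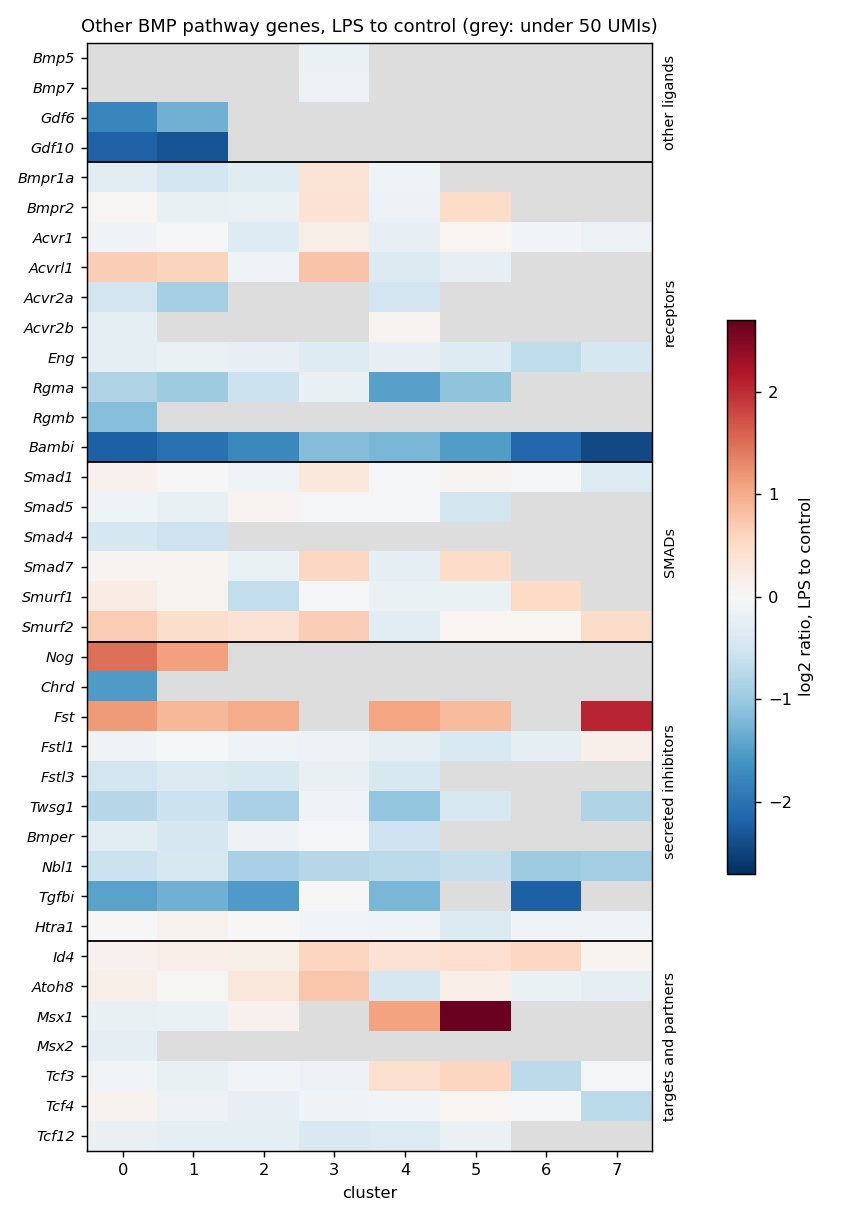
Log2 ratio of LPS to control for other BMP pathway genes with at least 50 UMIs in a compared cluster, grouped by role (rows) and by cluster (columns); red is higher and blue lower in LPS, and grey marks pairs under 50 UMIs. Bambi is blue in all 8 clusters, Msx1 is reddest in cluster 5 at 2.66, and no gene of the SMAD group reaches 2-fold.

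Among the receptors, Bambi stood out. It encodes a receptor-like membrane protein that lacks a kinase and damps BMP and TGF-beta signals. Bambi was at least 2-fold lower in LPS in all 8 compared clusters. In cluster 0 it was at 86.5 CPM (7824 UMIs) in control and 18.7 CPM (1378 UMIs) in LPS, a ratio of 0.216 (0.204 to 0.229). In interferon fibroblasts it was at 98.0 and 17.8 CPM, its lowest ratio at 0.181 (0.116 to 0.275). The least difference was in cluster 3, at 37.6 and 16.6 CPM (ratio 0.442). Fibroblast markers in cluster 3 were at 30.2% of their cluster 0 level in control and 28.9% in LPS, and in macrophages at 32.2% and 27.1%. The part of free RNA in the Bambi of clusters other than cluster 0 was not tested. In LPS the 8 clusters lay between 9.25 and 19.8 CPM.

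No receptor kinase gene passed 2-fold in any cluster with at least 50 UMIs. Acvr2a, an activin and BMP receptor, had a ratio of 0.697 (0.571 to 0.848) in cluster 0 and of 0.532 (0.342 to 0.812) in cluster 1. Bmpr1a and Acvr1 each had intervals below 1 in 2 clusters, and intervals that included 1 in the others with enough UMIs. Eng, counted with the receptors and co-receptors, had its interval below 1 in all 8 clusters, with ratios from 0.624 to 0.886. Bmpr2, the type II BMP receptor, had intervals that included 1 in each of the 6 clusters with at least 50 UMIs, with ratios from 0.871 to 1.42. Acvrl1, the endothelial type I receptor ALK1, had enough UMIs in 6 clusters, with ratios from 0.763 to 1.71. Its interval lay above 1 in 3 of them, among them cluster 0 (7.18 and 11.5 CPM, ratio 1.60, 1.44 to 1.77). It lay below 1 only in endothelial cluster 4 (22.7 and 17.4 CPM, ratio 0.763, 0.625 to 0.931). The co-receptor gene Rgma had its interval below 1 in all 6 clusters with enough UMIs. It was at least 2-fold lower in endothelial clusters 4 and 5. Its lowest ratio was in cluster 4, at 8.63 and 3.08 CPM (0.357, 0.229 to 0.543). The related Rgmb was lower in cluster 0, with 77 and 28 UMIs (ratio 0.446, 0.279 to 0.696).

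No SMAD or SMAD regulator passed 2-fold in any cluster. Smad7, a further inhibitory SMAD, was at 13.1 and 13.8 CPM in cluster 0, a ratio of 1.05 (0.967 to 1.15). It was higher in LPS in cluster 3 (17.2 and 25.4 CPM, ratio 1.47, 1.15 to 1.89) and in endothelial cluster 5 (19.8 and 27.9 CPM, ratio 1.41, 1.06 to 1.88). The other 4 clusters with enough UMIs had intervals that included 1.

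Secreted inhibitors went in both directions. Nog, which encodes the BMP antagonist noggin, was higher in LPS in cluster 0, at 2.71 CPM (245 UMIs) and 7.63 CPM (563 UMIs), a ratio of 2.82 (2.42 to 3.29). Fst, which encodes follistatin, an inhibitor of activins that also binds BMPs, was higher in all 6 clusters with enough UMIs, by 1.82-fold to 4.32-fold. The highest of these ratios, in interferon fibroblasts, rests on 10 and 45 UMIs; in cluster 0 Fst was at 15.4 and 34.0 CPM (ratio 2.21, 2.07 to 2.36).

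Some other genes counted with the secreted inhibitors and modulators were lower. Chrd, which encodes the antagonist chordin, had 143 UMIs in control and 40 in LPS in cluster 0, a ratio of 0.343 (0.235 to 0.490). Twsg1, a BMP-binding partner of chordin, had its interval below 1 in 4 of the 7 clusters with enough UMIs. Only endothelial cluster 4 passed 2-fold, at 19.3 and 9.25 CPM (ratio 0.478, 0.370 to 0.615). Tgfbi, a matrix protein gene, was at least 2-fold lower in 5 of the 6 clusters with enough UMIs (clusters 0, 1, 2, 4 and 6). Its lowest ratio was in macrophages, with 77 and 13 UMIs (0.212, 0.108 to 0.383). In cluster 3 Tgfbi was at 100.6 and 99.4 CPM, a ratio of 0.989 (0.883 to 1.11).

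Of the other ligands, Gdf6 and Gdf10 were lower in LPS in the fibroblast clusters that held enough UMIs. Gdf6 was at 6.50 CPM (588 UMIs) in control and 1.90 CPM (140 UMIs) in LPS in cluster 0, a ratio of 0.292 (0.241 to 0.352). Gdf10 had 74 and 12 UMIs in cycling fibroblasts, a ratio of 0.193 (0.0956 to 0.358). Both belong to the wider BMP and GDF ligand family.

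Among other targets, Msx1, a homeobox gene known as a BMP target, was higher in LPS in the endothelial clusters. It had 13 UMIs in control and 91 in LPS in cluster 5, a ratio of 6.54 (3.64 to 12.7). In cluster 4 it was at 15.8 and 33.5 CPM, a ratio of 2.12 (1.76 to 2.56). In cluster 0 it was at 7.10 and 6.17 CPM, a ratio of 0.868 (0.768 to 0.981). Bmp2 also had its highest ratio in cluster 5, and Id1 had a ratio of 1.45 there. In cluster 0, where Msx1 was lower, Bmp2 had a ratio of 11.04, and in cluster 4 a ratio of 4.88. A link between Msx1 and Bmp2 was not tested.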

How the data were processed

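Cells were captured with a droplet 3′ kit (10x Genomics, v2). The deposited matrices hold raw UMI counts per gene and cell, which the authors made with Cell Ranger 2.2.0; the genome build is not given in the sources used here. The authors joined both libraries, clustered the cells with Seurat 2.3.4 and deposited each cell's cluster and name, used here unchanged; 2 control and 8 LPS cells without a cluster were left out of cluster sums. Counts were summed per cluster and library with Python 3.11.15, numpy 2.4.6 and scipy 1.17.1. Ratios carry exact conditional intervals, levels exact Poisson intervals and shares Clopper-Pearson intervals; UMI intervals cover counting error only. Log2 ratios had 0.5 UMI added, and differences between log2 ratios carry an approximate interval from the counts. Genes needed 50 UMIs in a cluster over both libraries, and called means at least 2-fold. Self-tests on simulated Poisson counts were passed. They check the code and not the coverage of the intervals in these data, where Bmp2 counts per cell spread more than Poisson counts. No doublet caller was run; leaving out the 5% of cells with most UMIs was an alternative. Members, lists and motifs were chosen with earlier results of these data known. Of 47 pathway genes, those named are the 12 with the largest 2-fold or greater change and Bmpr2, Acvrl1 and Smad7, except 1 that is not reported here; other clusters of a named gene, such as Bambi, were added after their values were seen.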

Additional observations from a re-analysis of the deposited data

Results flagged for a closer look

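Id1 per cluster total was lower in LPS in macrophages and higher in the main fibroblast cluster: the log2 ratio of LPS to control in cluster 6 minus that in cluster 0 was −1.47, with a counting interval from −1.75 to −1.19. Relative to the median gene, the log2 ratio in macrophages was 0.01, so the directions were not opposite under that scaling. The difference was not tested over replicates, since each condition has 1 library.

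Id2 had opposite directions in cluster 3 and in cluster 0: the log2 ratio in cluster 3 minus that in cluster 0 was 1.15, with a counting interval from 0.79 to 1.51. This difference was likewise not tested over replicates.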

How the results depend on the processing

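Of 41 log2 ratios recomputed under up to 8 other choices, 308 of 314 values kept their sign and 1 value whose interval lay off 0 was reversed: Id1 in macrophages, which was 0.0072 when centred on the median gene. Centring moved Id3 in cluster 2 to 0.36, and pooling the endothelial clusters gave 2.97 for Bmp2 and 0.34 for Id1 in place of the cluster 5 values. Of the 314 values, 291 lay inside the counting interval of the main value and 22 moved outside it. The largest shift of a log2 ratio was 0.95. Pairs of a member and a cluster at least 2-fold lower numbered 3, against 7 at 1.5-fold and 1 at a minimum of 200 UMIs. When centred on the median gene, Bmp4 in cluster 0 had a log2 ratio of −0.91, short of 2-fold lower. Pathway pairs numbered 18 higher and 39 lower at 1.5-fold, and 36 lower at a minimum of 20 UMIs. The cluster with the highest level in control was 7 for Bmp2, 5 in the LPS library and 4 by the mean of the cells' own CPM. For Bmp6 it was 6 in LPS and 5 by the cell mean, for Smad6 4 and 3, and for Id2 1 in LPS. Without thinning, the Id3 share difference in cluster 2 was −0.868 percentage points. Leaving out barcodes found in both libraries, a choice made after seeing the data, was one of these alternatives. The causes of these shifts were not tested. No paired analysis was possible because the design holds only 1 library of each kind. Depth limits Bmp6, Grem1 and Smad6, and Bmp4 in macrophages.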

Other observations

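The 3 smaller clusters were left out of the comparison and the counts above, and their levels and ratios rest on few cells. In the mesothelial-like cluster 8 (70 control and 81 LPS cells), Bmp2 had 3 UMIs in control and 27 in LPS, Id1 was at 88.2 and 151.4 CPM (ratio 1.72, 1.33 to 2.23) and Id3 was at 363.4 and 576.2 CPM (ratio 1.59, 1.40 to 1.80). Bmp2 had 2 and 13 UMIs in the unnamed cluster 9, which is rich in mitochondrial UMIs. In the Schwann-like cluster 10 (16 control and 26 LPS cells) it had 3 and 10 UMIs. Id3 in cluster 10 was at 375.5 CPM (54 UMIs) in control and 733.9 CPM (117 UMIs) in LPS, a ratio of 1.95 (1.40 to 2.75).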
